A study of Sus scrofa with 4 samples.

Results

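EPCAM and KRT8 are genes of epithelial cells, and their mRNA was measured in the thymus of IL2RG KO and WT pigs on oligonucleotide arrays. All array probes whose RefSeq accession belongs to one of these pig genes were taken, whatever their values. This gave 2 of the 3020 genes that could be named on the array, and 19 of its 43603 probes, of which 16 detect EPCAM and 3 detect KRT8. Every one of the 19 probes was well above background on all 4 arrays and entered the test.

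EPCAM is a membrane glycoprotein that joins neighbouring epithelial cells and that can be cleaved to release a fragment which signals in the nucleus. KRT8 is a type II keratin that pairs with KRT18 to build the intermediate filaments of simple epithelia. In the thymus both mark the epithelial cells that form the stroma for developing T cells, with keratin 8 best known from the cortex and EPCAM from the medulla, and in mice EPCAM has also been described on thymocytes.

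The KO group comprised 2 Minnesota miniature swine of the genotype IL2RG+/-, also called mIL2RG+/Δ69-368, and the WT group comprised 2 Minnesota miniature swine labelled wildtype. The edit was introduced with TALENs directed at exon 2 of IL2RG, which encodes a receptor chain shared by several interleukins, and the edited cells were used for nuclear transfer. Most pigs of this genotype had no thymus at all, and the KO arrays came from animals with a rudimentary one. The origin of the WT pigs and the ages of all 4 pigs are not given in the sources used here, and no treatment is named. The paper reports that most KO pigs died within the first week of life and that another was analysed at a later age. Which of them gave the KO arrays is not stated. The p-values below rest on the spread between these 2 pigs per genotype. In limma the spread of each probe is also drawn towards that of all tested probes. A smaller number of cells of a type and less RNA per cell of that type cannot be told apart in RNA of whole tissue.

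Each sample was hybridised alone, in 1 channel. Each signal is given as the log2 of the processed spot brightness minus the 75th percentile of its array. Summed signals of a gene list are instead linear and not scaled between arrays. KO replicate 1 shared slide 1 with WT replicate 2, and KO replicate 2 shared slide 2 with WT replicate 1. The share of probes well above background was 67.9% to 74.5% per array, and no spot was saturated. A probe was called different when limma gave a Benjamini-Hochberg adjusted p under 0.05 and the fold change was at least 2. Of the 31959 tested probes, 34.0% were called different in either direction and 21.0% were called higher in KO. At the brighter of its probes the targeted gene IL2RG read -3.15 and -3.29 in KO against -0.13 and 0.52 in WT, and it fell by 3.41 on the log2 scale (SE 0.27, limma adjusted p = 0.00256). The position of these probes relative to the edit is not given in the sources used here.

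KRT8 mRNA was higher in both KO thymi than in both WT thymi at each of its 3 probes, with fold changes between 5.17 and 5.46. EPCAM mRNA differed little. Its 16 probes had fold changes between 1.19 and 1.33, and 0 of the 16 were called different. The 3 KRT8 probes were all called higher in KO, where 21.0% of all tested probes were.

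The brightest KRT8 probe had a normalised log2 signal of 7.61 in KO replicate 1 and 7.54 in KO replicate 2, against 5.65 in WT replicate 1 and 4.76 in WT replicate 2. The second KRT8 probe gave 6.28 and 6.09 in KO against 4.08 and 3.40 in WT. The third gave 4.92 and 4.71 in KO against 2.75 and 2.01 in WT. At all 3 probes the KO arrays lay close together, the WT arrays lay further apart, and WT replicate 1 was the higher of the WT pair. The gap between the KO arrays was 0.07 to 0.20, and that between the WT arrays was 0.68 to 0.88, both on the log2 scale. The groups did not overlap at any KRT8 probe, while both KO arrays lay above both WT arrays at 37.7% of all tested probes.

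The log2 fold change of KRT8, KO minus WT, was 2.37 at the first probe (SE 0.33, 95% confidence interval 1.48 to 3.26, limma adjusted p = 0.00778), 2.45 at the second and 2.43 at the third. The limma adjusted p of the latter probes was 0.00497 and 0.00572. The median fold change over the 3 probes was 5.40. Among all tested probes, 7.62% had a larger log2 fold change than the median KRT8 probe. The KO arrays averaged 6.19 ± 0.11 over the 3 probes (SD, n = 2), and the WT arrays averaged 3.78 ± 0.54 (SD, n = 2). With 2 arrays per genotype the exact two-sided permutation test of this mean gave p = 0.333, which is the smallest value that 6 permutations allow. Within slide 1 the KRT8 difference was 2.85 to 2.90 and within slide 2 it was 1.89 to 2.01, again on the log2 scale, so the direction was the same on both slides.

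The brightest EPCAM probe had a normalised log2 signal of 4.16 in KO replicate 1 and 4.21 in KO replicate 2, against 3.73 in WT replicate 1 and 3.90 in WT replicate 2. All 4 values lay within 0.48 of each other. The log2 fold change was 0.37 (SE 0.16, 95% confidence interval -0.06 to 0.80, limma adjusted p = 0.127). It was the smallest adjusted p of the 16 EPCAM probes.

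The EPCAM probe with the largest difference, probe 14 in order of falling signal, gave 2.79 and 2.72 in KO against 2.09 and 2.61 in WT, which is a log2 fold change of 0.41. The one with the smallest difference, probe 13, gave 2.75 and 2.72 in KO against 2.35 and 2.62 in WT, which is a log2 fold change of 0.25. The dimmest, probe 16, gave 2.11 and 1.88 in KO against 1.38 and 2.01 in WT, which is a log2 fold change of 0.30. At probe 16 the groups overlapped, since WT replicate 2 lay between the KO arrays.

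Across all 16 EPCAM probes the mean was higher in KO than in WT, with a median log2 fold change of 0.30. Both KO arrays lay above both WT arrays at 10 of the 16 probes, where 37.7% of all tested probes did so. At the other 6 probes WT replicate 2 was above KO replicate 2. WT replicate 1 was the lowest array at all 16 probes. No EPCAM probe had an unadjusted limma p under 0.05, and the lowest was 0.0788. Among all tested probes, 36.6% had a larger log2 fold change than the median EPCAM probe.

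The 95% confidence interval of the log2 fold change included 0 at all 16 EPCAM probes. Its lower end lay between -0.43 and -0.06 and its upper end between 0.72 and 1.03. At 14 of the 16 probes the upper end was below the 2-fold threshold, and probes 14 and 16 were the exceptions, both at 1.03. The intervals thus reached from a small fall in KO to a rise of about 2-fold.

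**Figure D1:**
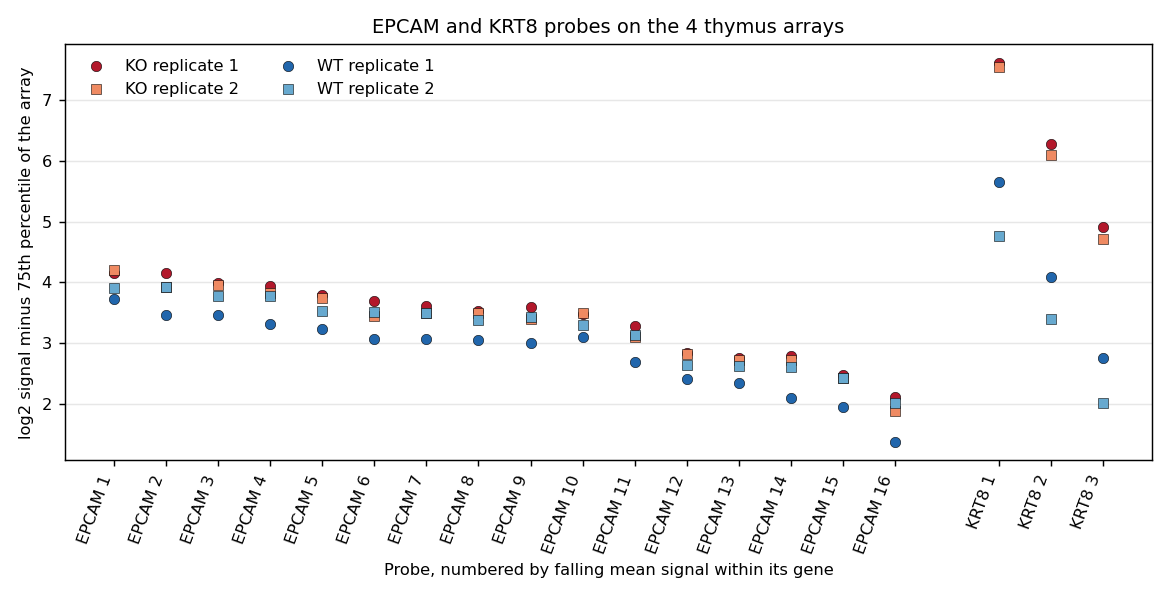
Normalised signal (y axis, log2 of the signal minus the 75th percentile of the array) of each EPCAM and KRT8 probe (x axis, ordered by falling signal within its gene) on the 4 arrays, 1 point per array. The KO points lie above the WT points at all 3 KRT8 probes. WT replicate 1 is the lowest point at all 16 EPCAM probes, and WT replicate 2 lies above KO replicate 2 at 6 of the 16.

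The WT arrays stood in opposite order for EPCAM and KRT8. WT replicate 2 was above WT replicate 1 at all 16 EPCAM probes, by 0.17 to 0.64 with a median gap of 0.43 on the log2 scale, and below it at all 3 KRT8 probes, by a median of 0.74. The mean over the 16 EPCAM probes was 3.38 in KO replicate 1, 3.29 in KO replicate 2, 2.83 in WT replicate 1 and 3.22 in WT replicate 2. The KO arrays thus averaged 3.34 ± 0.07 (SD, n = 2), and the WT arrays averaged 3.02 ± 0.27 (SD, n = 2). The difference of 0.31 was close to the SD of the WT arrays, and the exact two-sided permutation test gave p = 0.333, the smallest value possible. Over all tested probes the median gap between the arrays of a genotype was 0.16 in KO and 0.30 in WT.

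The slides differed in the size of the EPCAM difference. Within slide 1, KO replicate 1 exceeded WT replicate 2 by 0.04 to 0.27, with a median of 0.17. Within slide 2, KO replicate 2 exceeded WT replicate 1 by 0.38 to 0.64, with a median of 0.46. The sign was positive at all 16 probes on both slides. Without WT replicate 1 the median EPCAM log2 fold change was 0.12, and without WT replicate 2 it was 0.50, where 1 of the 16 probes had a limma adjusted p of 0.0347 at less than 2-fold.

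**Figure D2:**
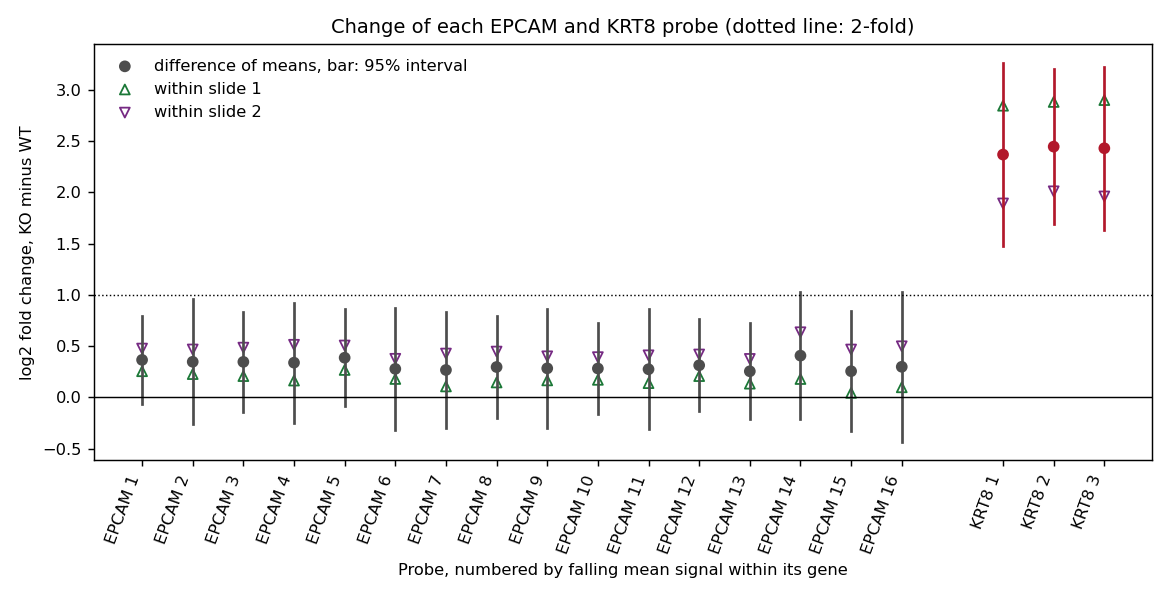
Log2 fold change, KO minus WT (y axis), of each EPCAM and KRT8 probe (x axis), with the limma estimate as a filled point, its 95% confidence interval as a bar, and the difference within each slide as open triangles. All 16 EPCAM intervals include 0, and all 3 KRT8 intervals lie above the dotted 2-fold line.

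The probes of each gene gave near-equal changes. The log2 fold changes of the 16 EPCAM probes spanned 0.15, with an SD of 0.048 over the probes. The 44 other named genes with at least 10 tested probes had a median SD of 0.119, and 0 of the 44 had a smaller SD than EPCAM. Across the 16 probes the log2 fold change and the mean signal had a Pearson's r of 0.33, given as a description since the probes share a transcript and the same arrays. The 3 KRT8 probes spanned 0.08, with an SD of 0.041, and 66 of the 686 other genes with at least 3 tested probes had a smaller SD. Probes of a gene read the same RNA samples, so their number adds no replicates.

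KRT8 changed by more than EPCAM on the same arrays. At the brightest probe of each gene the KRT8 change exceeded the EPCAM change by 2.00 on the log2 scale, a ratio of 4.01 between the fold changes. Relative to the WT mean, KRT8 minus EPCAM was 2.06 in KO replicate 1 and 1.95 in KO replicate 2, against 0.53 in WT replicate 1 and -0.53 in WT replicate 2. The KO and WT arrays did not overlap in this measure, and the exact two-sided permutation p was 0.333, the smallest possible. Over all 48 pairs of a KRT8 and an EPCAM probe the excess was 1.96 to 2.19, without overlap in any of the 48. These pairs read the same arrays and are not independent, and the share of such pairs over other genes is not given here. At the brightest probes it was 2.59 within slide 1 and 1.42 within slide 2. Scaling an array by a constant leaves this difference as it is, since both genes shift alike.

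The size of the EPCAM difference depended on that scaling. When the arrays were scaled to their median in place of their 75th percentile, the median log2 fold change of all tested probes moved from -0.06 to -0.32 and that of EPCAM from 0.30 to 0.04, while the share of called probes that were higher in KO went from 61.7% to 47.9%. Under the median scaling EPCAM probes 13 and 15 turned to the other sign, with log2 fold changes of -0.0042 and -0.0034. Relative to the median of all tested probes, EPCAM was 0.36 higher in KO and KRT8 was 2.49 higher under either scaling. Quantile normalization gave a median EPCAM log2 fold change of 0.44, and 1 of the 16 probes then had a limma adjusted p of 0.0446 at less than 2-fold. The median KRT8 log2 fold change ranged from 2.06 to 2.80 over all alternatives, with single probes from 1.93 to 2.81, and the 3 probes were called in every limma fit.

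**Figure D3:**
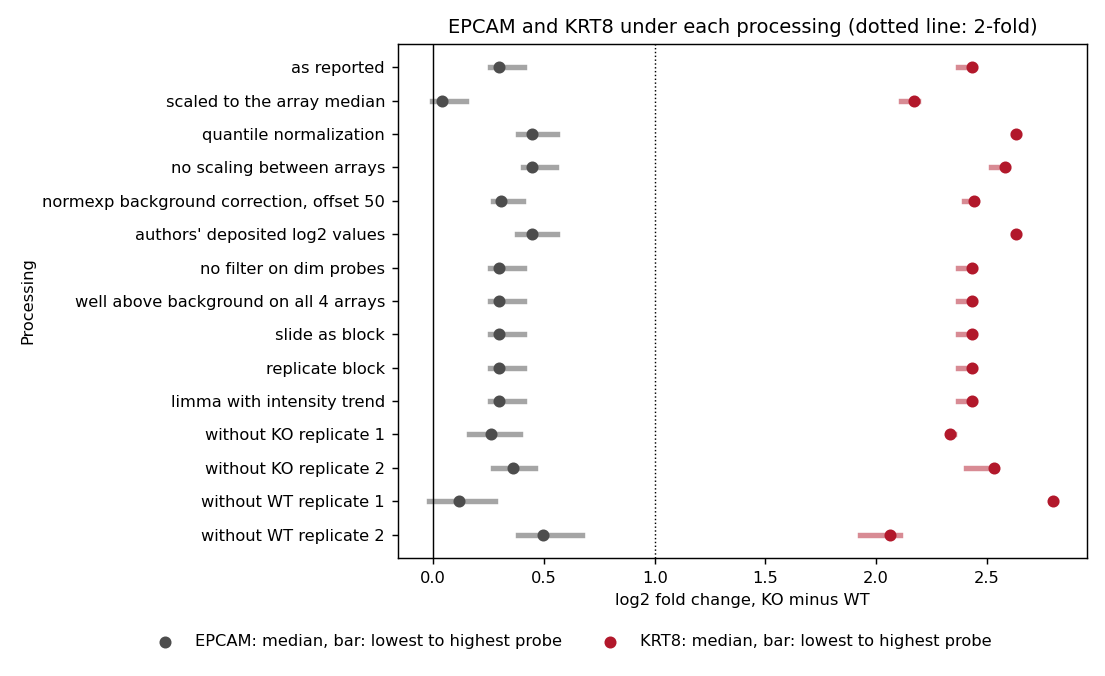
Log2 fold change, KO minus WT (x axis), of the EPCAM probes in grey and the KRT8 probes in red under each processing (y axis), with the median as a point and the lowest to highest probe as a bar. The EPCAM medians lie between 0.04 and 0.50 and the KRT8 medians between 2.06 and 2.80.

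Genes of epithelial cells and their junctions, and genes that act with EPCAM, were read from 5 lists that together hold 100 genes. These are called epithelial genes below. A named probe was tested for 26 of them, each taken at its brightest probe. Some, such as CLDN5 and LEF1, are also genes of other cell types, so the counts are not of epithelium alone. Of these 26 genes, 15 were called higher in KO and 2 lower, and the median of the 26 log2 fold changes was 1.38. Of the 2702 named genes tested, 25.2% were called higher and 12.6% lower, and the median of their log2 fold changes was near 0. Without KO replicate 1 only 6 of the 26 were called higher and without KO replicate 2 only 7, and the calls of KRT2, SPINT1, CDH1, OCLN, CLDN5, CXCL12, IL7, ENPEP and CTSV were lost in both cases and that of JUP without KO replicate 1. The lists were chosen with earlier results of these arrays known, and their counts are given as a description.

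Keratins other than KRT8 were hardly covered. Of 18 keratins of simple, thymic and stratified epithelia only KRT2, an epidermal keratin, had a tested named probe. KRT18, the partner of KRT8, and KRT5, KRT14 and KRT19 had none. The normalised log2 signal of KRT2 was -2.83 and -2.78 in KO against -0.62 and -1.65 in WT. Its log2 fold change was -1.67 (SE 0.38, limma adjusted p = 0.025), opposite in sign to KRT8, and 1 of its 2 tested probes was called.

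Of 14 genes whose proteins bind or process EPCAM 7 were tested, with 2 called higher in KO, 1 called lower and 4 not called, shares close to the 25.2% and 12.6% of all named genes. CLDN7, a tight junction protein that forms a complex with EPCAM, read 1.92 and 1.58 in KO against -1.11 and -1.78 in WT, in normalised log2 signal. Its log2 fold change was 3.19 (SE 0.29, limma adjusted p = 0.00325). SPINT1, an inhibitor of membrane serine proteases, was called at a log2 fold change of 1.17. It was 0.91 with scaling to the median, 0.92 with quantile normalization and 0.58 with the normexp background correction. The SPINT1 call was lost under each of these. CLDN7 was thus called and EPCAM was not, and the difference between these changes was not tested.

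The genes of EPCAM cleavage and signalling included ADAM17, the protease that cuts EPCAM outside the cell, with a log2 fold change of 0.20. PSEN2, a subunit of the gamma-secretase that releases the inner fragment, had a log2 fold change of 0.71. Its limma adjusted p was 0.0400, and it missed the call through the 2-fold threshold alone. CTNNB1, the beta-catenin with which the fragment acts, had 0.34. None of these 3 genes was called. LEF1, a transcription factor of that complex which is also abundant in thymocytes, was called lower at a log2 fold change of -3.62. The tetraspanin CD9 read 4.67 and 4.66 in KO but 4.55 and 2.06 in WT, so that WT replicate 1 lay near the KO arrays, and it was not called, although 2 of its 5 tested probes were called higher. Without WT replicate 1 its log2 fold change was 2.60 and it was called (limma adjusted p = 0.00144).

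All 6 tested genes of epithelial junctions were called higher in KO, where 25.2% of all named genes tested were. Their log2 fold changes lay between 1.35 and 2.10. CDH1, the E-cadherin of adherens junctions, read 4.24 and 4.02 in KO against 3.02 and 2.54 in WT, which is a log2 fold change of 1.35. The claudins CLDN3 and CLDN4 had log2 fold changes of 1.86 and 2.10, the tight junction protein OCLN 1.41 and plakoglobin, JUP, 1.40. CLDN5, with 1.49, is also a gene of endothelium. The epithelial transcription factor KLF5 was called higher at a log2 fold change of 2.77, and KLF4, at 1.43, was not called at its brightest probe, while 2 of its 7 tested probes were called higher. That probe was called without WT replicate 1, at 2.09, and also with normexp or with the slide as a block.

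Of 25 genes of thymic epithelium 10 were tested, with 6 called higher in KO, 0 called lower and 4 not called. Among all named genes tested, 25.2% were called higher and 12.6% lower. FOXN1, PSMB11 and AIRE, the genes that define thymic epithelium best, had no named probe. CCL25, a chemokine of thymic epithelium that draws in progenitors, read 5.50 and 5.18 in KO against 5.03 and 4.69 in WT, which is a log2 fold change of 0.48 that was not called. The chemokines CCL19 (3.26) and CXCL12 (1.56) were called higher, with the log2 fold change in brackets. The stem cell factor KITLG is among the 6 called, but it was not well above background in the WT arrays. It entered the test through the KO arrays alone, so its p-value and fold change in the main fit are not given. With the normexp background correction its log2 fold change was 0.27 and the call was lost (limma adjusted p = 0.22). With only probes well above background on all 4 arrays, 14 genes of the 5 lists were called higher in place of 15.

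**Figure D4:**
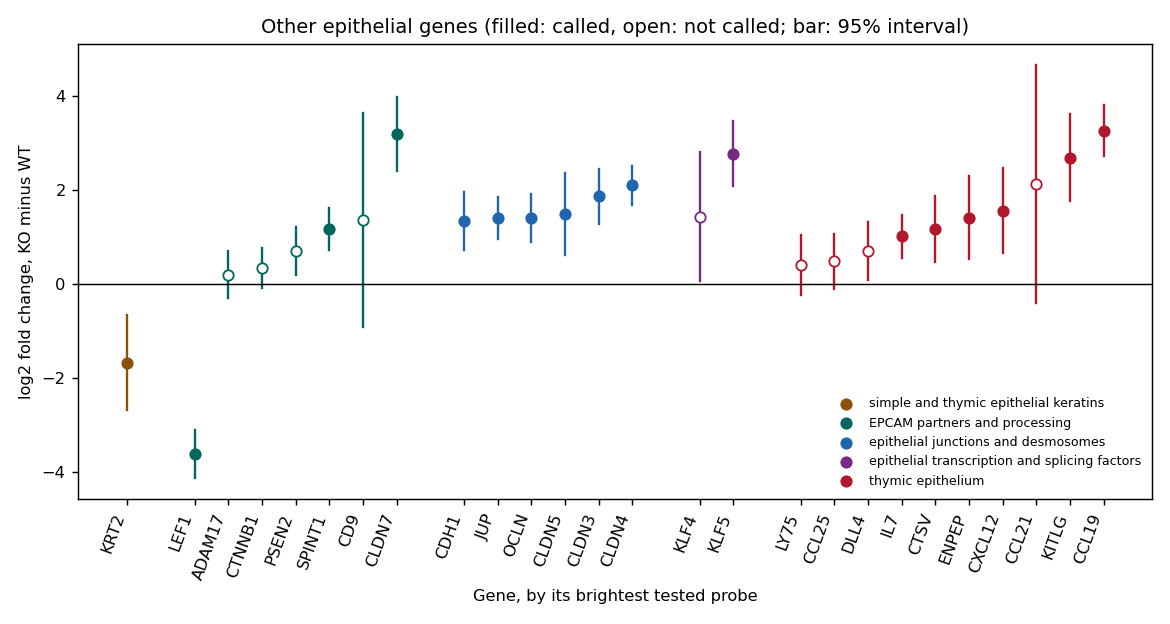
Log2 fold change, KO minus WT (y axis), of the 26 other epithelial genes with a tested named probe (x axis), coloured by list, with the 95% confidence interval as a bar, filled points for genes called different and open points for the rest. Of the 26 genes, 15 are called higher and 2, KRT2 and LEF1, are called lower, and the WT signal of KITLG is not well above background, so that its point is not a measured size.

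Among the 15 epithelial genes called higher in KO, WT replicate 1 was above WT replicate 2 at 14. This is the order of the WT arrays seen at KRT8 and the reverse of that seen at EPCAM. The 12 tested thymocyte genes had WT replicate 2 above WT replicate 1 at all 12, which is the order seen at EPCAM, as had 7 of 9 muscle genes. WT replicate 1 was the higher at 7 of 9 macrophage, 4 of 5 fibroblast, 5 of 5 endothelial and 8 of 8 adipocyte genes. The order seen at KRT8 was thus also that of most genes in these lists. The share of all tested probes in either order is not given here, so these counts are a description only. For KITLG and PLIN1 the order rests on WT signals that were not all well above background.

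Markers of other cells in the tissue moved with genotype. For comparison, 25.2% of all named genes tested were called higher in KO and 12.6% lower. All 12 tested thymocyte genes of a list of 18 were called lower, the median of their log2 fold changes was -2.58, and their summed signal was 19965 to 22665 in KO against 106059 to 167955 in WT. All 9 tested macrophage genes of 14 were called higher, with a median of 2.00 and a summed signal of 191052 to 220363 in KO and 38263 to 42861 in WT. Of the fibroblast genes 4 of 5 were called higher, of the endothelial genes 4 of 5 and of the adipocyte genes 5 of 8, although without KO replicate 2 the calls of these 5 adipocyte genes were lost, as were those of the fibroblast genes COL1A2, DCN and LUM without either KO array. Leaving out either KO array also ended the calls of the macrophage genes TYROBP and FCER1G and the endothelial gene PECAM1, and leaving out KO replicate 2 that of CD14. Without WT replicate 2 the calls of COL1A2, ADIPOQ, FABP4, CD36 and PPARG were lost as well. With the replicate block those of COL1A2 and DCN were lost. The adipocyte gene PLIN1 entered the test through the KO arrays alone, and the thymocyte gene RAG2 through the WT arrays alone. The junction genes of epithelium had a summed signal of 13790 to 17143 in KO and 4803 to 5912 in WT. CDH1 made up most of it, with 14358.5 in KO replicate 1 and 5034.64 in WT replicate 1. The part of the makeup of the tissue in the KRT8 and EPCAM values was not tested.

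Epithelia of organs near the thymus also express KRT8 and EPCAM. Of 9 thyroid and parathyroid genes 3 were tested and 0 were called by limma at their brightest probe, with a summed signal of 469 to 576 over the 4 arrays. Their other probes differed in part, with 3 of 5 TG probes called higher and 1 of 2 SLC5A5 probes called lower. Of 12 genes of salivary, airway and oesophageal epithelium 6 were tested. BPIFA1, a secreted airway protein, was called higher, but only 1 of the WT arrays was well above background. Its normalised log2 signals were -3.07 and -2.55 in KO against -5.11 and -8.12 in WT, and its fold change is not given. PIGR, the receptor that carries IgA across epithelia, was called higher but was not well above background on either WT array. Both calls were lost when either KO array was left out. The other 4 genes were not called, and of them LTF, the lactoferrin gene, read -0.95 and 1.05 in KO against 4.42 and 0.17 in WT and was called lower without WT replicate 2 (limma adjusted p = 0.0239). The mesothelial list of 5 had 1 tested gene, the transcription factor WT1. It was called higher but was not well above background on either WT array. BPIFA1, PIGR and WT1 entered the test through the KO arrays alone, so their calls are given as a description without p-values. With normexp the log2 fold changes of PIGR and WT1 were 0.07 and 0.43 and both calls were lost. The part of these tissues in the KRT8 difference was not tested.

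The named genes with the pattern most like the brightest probe of KRT8 or of EPCAM were found by the root mean square difference over the 4 arrays of log2 values centred on each probe's own mean, among 2513 genes well above background on all arrays. For KRT8 the 5 nearest were GBP1 and SNCAIP, both at 0.044, EGF at 0.059, S100A14 at 0.066 and IL13RA1 at 0.071. Their log2 fold changes were 2.28 to 2.39 and all 5 were called. The other KRT8 probes stood at 0.077 and 0.092 from the brightest, and 9 genes were as near as the farther of them. For EPCAM the 5 nearest were AZIN1 at 0.016, MDM2 at 0.023, CGA at 0.027, HK1 at 0.028 and DPYD at 0.034, with log2 fold changes of 0.33 to 0.41 and none called. The other 15 EPCAM probes stood at 0.039 to 0.195, and 310 genes were as near as the farthest of them. With 4 arrays, such a likeness separates few genes at the size of the EPCAM difference.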

How the data were processed

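Thymus RNA of 2 KO and 2 WT pigs was labelled with Cy3 according to the sample labels and hybridised to 4 porcine arrays, while the study's methods also describe Cy-5. The intensity values were deposited by the authors as output of Agilent Feature Extraction 11.0.1.1, with background subtracted and no normalization between arrays. The authors also deposited a log2 table, which held quantile normalized values of 27974 probes, those above background on every array (r of at least 0.9998 with the scanner values). The methods name GeneSpring, and the unpaired Bonferroni-corrected test of the study is here the methods' t-test. Spleen arrays were not analysed here.

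Control spots and outlier spots were left out, which removed 6 of 43603 probes. The log2 processed signal minus the 75th percentile of its array was averaged over spots of a probe. Probes had to be well above background in both pigs of a genotype, and the 31959 that were so were fitted with limma 3.58.1 in R 4.3.3, with Benjamini-Hochberg adjustment over all of them, and the fit was tested on simulated data. Python 3.11.15, pandas 2.3.3 and matplotlib 3.10.9 served for tables and plots. Names came from RefSeq accessions (7111 probes, of which 6686 were matched to 3020 genes of the Sscrofa11.1 table, 15.3% of all probes). No coordinates were used, and cross-hybridisation of probes was not tested. A gene other than EPCAM and KRT8 was read at its brightest tested probe. The genes named are every probe of EPCAM and KRT8, IL2RG, the listed genes, and the 5 nearest patterns of each gene. The genes and lists were chosen with earlier results of these data known. The results of a few listed genes are left out here, and the counts are without them. A list of 8 mesenchymal genes had 0 tested, and of the 10 skeletal muscle genes 9 were tested, with 3 called lower and 0 higher at the brightest probe, while 7 of 10 CKM probes and 3 of 4 DES probes were called higher and 7 of 16 ACTA1 probes lower.

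The alternatives were scaling to the median, quantile normalization, no scaling, normexp with an offset of 50 (on the median intensity, which the files give), the authors' log2 values, other filters on dim probes, a slide block, a replicate block, an intensity trend, the methods' t-test and each array left out. Replicate numbers did not pair the samples: the deviations of same-numbered samples had a correlation of -0.29. The number of arrays limits the precision.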

Additional observations from a re-analysis of the deposited data

How the results depend on the processing

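The median KRT8 log2 fold change stayed between 2.06 and 2.80 in all alternatives, and the KRT8 probes were called in all of them except the methods' t-test with Benjamini-Hochberg adjustment (0 called, adjusted p 0.0776 to 0.0948) and with Bonferroni (0 called). Unadjusted, that test called all 3. No EPCAM probe was called in any alternative, limma or not. The median EPCAM log2 fold change was 0.039 with scaling to the median and 0.12 to 0.50 with 1 array left out. Probes 13 and 15 turned to -0.0042 and -0.0034 with scaling to the median, and probe 16 ranged from -0.019 without WT replicate 1 to 0.62 without WT replicate 2. The cause was not tested.

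Over all tested probes, 10882 were called, 6610 with normexp, 6090 to 12713 with 1 array left out (6423 without KO replicate 1, 6090 without KO replicate 2), 1489 by the methods' t-test with Benjamini-Hochberg adjustment and 0 with Bonferroni. Those called higher were 6713 of 10882, and 5811 of 12144 with scaling to the median, where 6333 were lower. Of the 26 epithelial genes, 15 were called higher, 6 to 18 with 1 array left out (6 without KO replicate 1, 7 without KO replicate 2, both fits assuming that the lone KO array varies like the WT arrays), 1 by the adjusted methods' t-test and 0 with Bonferroni. The 2 called lower became 1 to 2 with 1 array left out, 1 by the adjusted and by the unadjusted methods' t-test and 0 with Bonferroni. CDH1, SPINT1, OCLN, CLDN5, CXCL12 and KRT2 were among the calls lost without either KO array.

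With the replicate block 10658 probes were called, with KRT8 adjusted p of 0.00692 to 0.00931 in limma, and it changed no EPCAM or KRT8 call. The correlation of -0.29 led to a look at the crossed pairing, which is the same fit as the planned slide block and called 11136. With the slide block the limma adjusted p of the KRT8 probes was 0.0122 to 0.0139. The 2 arrays per genotype limit what could be detected for EPCAM.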
